A study of Bos taurus with 9 samples.

Results

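The genes described here encode the nuclear subunits of the mitochondrial respiratory chain and of ATP synthase, with a few complex I assembly factors that share their symbols. They were chosen by name: a probe set counted when the array annotation gave it 1 gene symbol only and that symbol began with NDUF, UQCR, COX4 to COX8 or ATP5, or was SDHA, SDHB, SDHC or SDHD. The rule found 109 probe sets for 84 genes, out of 9155 genes that the array names alone. For the 22 genes with several probe sets, the one with the highest mean over the 9 arrays stood for the gene. The rule uses names only.

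The respiratory chain moves electrons from NADH and succinate to oxygen through complexes I, II, III and IV of the inner mitochondrial membrane. Complexes I, III and IV pump protons as they do so, and ATP synthase lets the protons flow back to make ATP. Most subunits come from nuclear genes, and several complex IV subunits exist as a ubiquitous form and a form typical of heart and skeletal muscle. In the ruminant uterus, interferon tau is the embryo's signal of pregnancy, while lysophosphatidic acid is a lipid mediator that endometrial cells make and respond to.

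The cells came from the endometrium of 9 slaughtered Holstein/Polish Black and White cows, between day 2 and day 5 of the cycle. Enzyme digestion separated the stromal from the epithelial cells, which were then cultured together in a ratio of 3 stromal to 1 epithelial. The 3 groups were control (PBS), LPA (1-oleoyl lysophosphatidic acid, 1e-06 M) and LPA+IFNt (the same LPA dose with interferon tau at 1000 AVU), each exposed for 6 h and each with 3 samples. Every sample was a pool from 3 cows, so 9 pools from 9 cows must share animals, and p-values measure only the spread between these pools. No group with interferon tau alone was analysed here, so any difference of LPA+IFNt from LPA holds in the presence of LPA. Each pool was hybridised to 1 Affymetrix bovine array, and the values are deposited log2 expression after RMA normalization.

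Array medians lay between 4.30 and 4.38, and no arrays were identical. All 6 interferon-response genes used to check the labels (MX1, MX2, ISG15, RSAD2, IFI44 and IFI6) were higher in LPA+IFNt, with a median log2 difference of 6.59 against control. All 14 measured epithelial markers and all 14 measured stromal markers lay above background on every array, background being the highest value of the 3 trp control probe sets, 2.80. None of the 8 endothelial and none of the 5 red blood cell markers lay above it on all arrays of a group. Of 16 leukocyte markers, 5 lay above it in control and LPA and 6 in LPA+IFNt, and 1 of them, CD53, was higher in LPA+IFNt (adjusted p = 0.0252 against control, lost for 6 of the 9 arrays left out in turn). With the replicate number as a block, CD14 was called lower against control (-0.74, adjusted p = 0.0364, and 0.11 without the block). Among the 84 genes, 81 lay above background on all 9 arrays, and COX6A2, COX6B2 and NDUFA4L2 lay under it on all 9.

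In the presence of interferon tau and LPA, 1 of the 84 genes was much higher and most of the others were slightly lower than in control. COX7A1, the heart and muscle form of complex IV subunit VIIa, rose 4.42-fold. The 6 genes that fell all encode complex I subunits, NDUFS7, NDUFB4, NDUFB6, NDUFA2, NDUFC2 and NDUFS1, and fell by 13.0% to 25.6%. Complex I subunits make up 36 of the 84 genes. In all, 7 of 84 genes (8.33%) passed an adjusted p under 0.05, beside 5.34% of all 24016 probe sets and 8.44% of the 15053 probe sets with a mean above background. The share called is thus near that of probe sets that measure a transcript. By direction, 1 gene was higher (1.19%, beside 2.48% of all probe sets and 3.88% of those above background). The 6 lower genes are 7.14%, beside 2.86% and 4.56%. Tests were limma fits over all probe sets with Benjamini-Hochberg adjustment. With arrays centred on their spike-in controls instead, COX7A1 and NDUFB4 alone were called, beside 630 higher and 481 lower of all 24016 probe sets. The count was 4 without control 1, without control 3 or without LPA+IFNt 3. All probe sets then gave 490, 489 and 481 higher and 391, 531 and 427 lower.

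The direction of the genes was less evenly divided than the calls. The log2 fold change was below 0 for 75 of 84 genes (89.3%). That held for 40.7% of all probe sets, 58.4% of those above background and 66.5% of the 3160 with a mean above 10. The median log2 fold change of the 84 genes was -0.13, and -0.09 with spike-in centring, where that of all probe sets was 0.06. Beside the -0.13 stood 0.02 for all probe sets, -0.04 for those above background and -0.05 for those with a mean above 10. All 3 LPA+IFNt arrays lay below all 3 control arrays for 40 genes (47.6%), beside 12.8% of all probe sets and 20.1% of those above background. The opposite order held for 2 genes, COX7A1 and the background-level NDUFA4L2, or 2.38% beside 10.2% of all probe sets. With control and LPA+IFNt arrays paired by replicate number, 61 genes (72.6%) were lower in all 3 pairs. That held for 20.9% of all probe sets and 32.2% of those above background.

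Replicate numbers were taken to pair the arrays because deviations of same-numbered arrays correlated in these data. The labels do not say what a number marks. On that assumption, the fit with the number as a block bears on these counts. With it, 18 of 84 genes (21.4%) passed, beside 8.68% of all probe sets and 13.7% of those above background. COX7A1 was again the 1 gene higher (1.19%, beside 3.24% of all probe sets). The 17 lower genes (20.2%) stood beside 5.44% of all probe sets and 8.67% of those above background. The 7 genes called without the block were all among the 18. Those added were NDUFV1, NDUFA7, NDUFA8, NDUFB7, NDUFS5, NDUFAF3, NDUFAF5, NDUFAF8, UQCRC1, COX7C and ATP5F1C. Of the 17 lower genes, 11 encode complex I subunits and 3 complex I assembly factors. Among the 84 genes these groups hold 36 and 4.

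**Figure D1:**
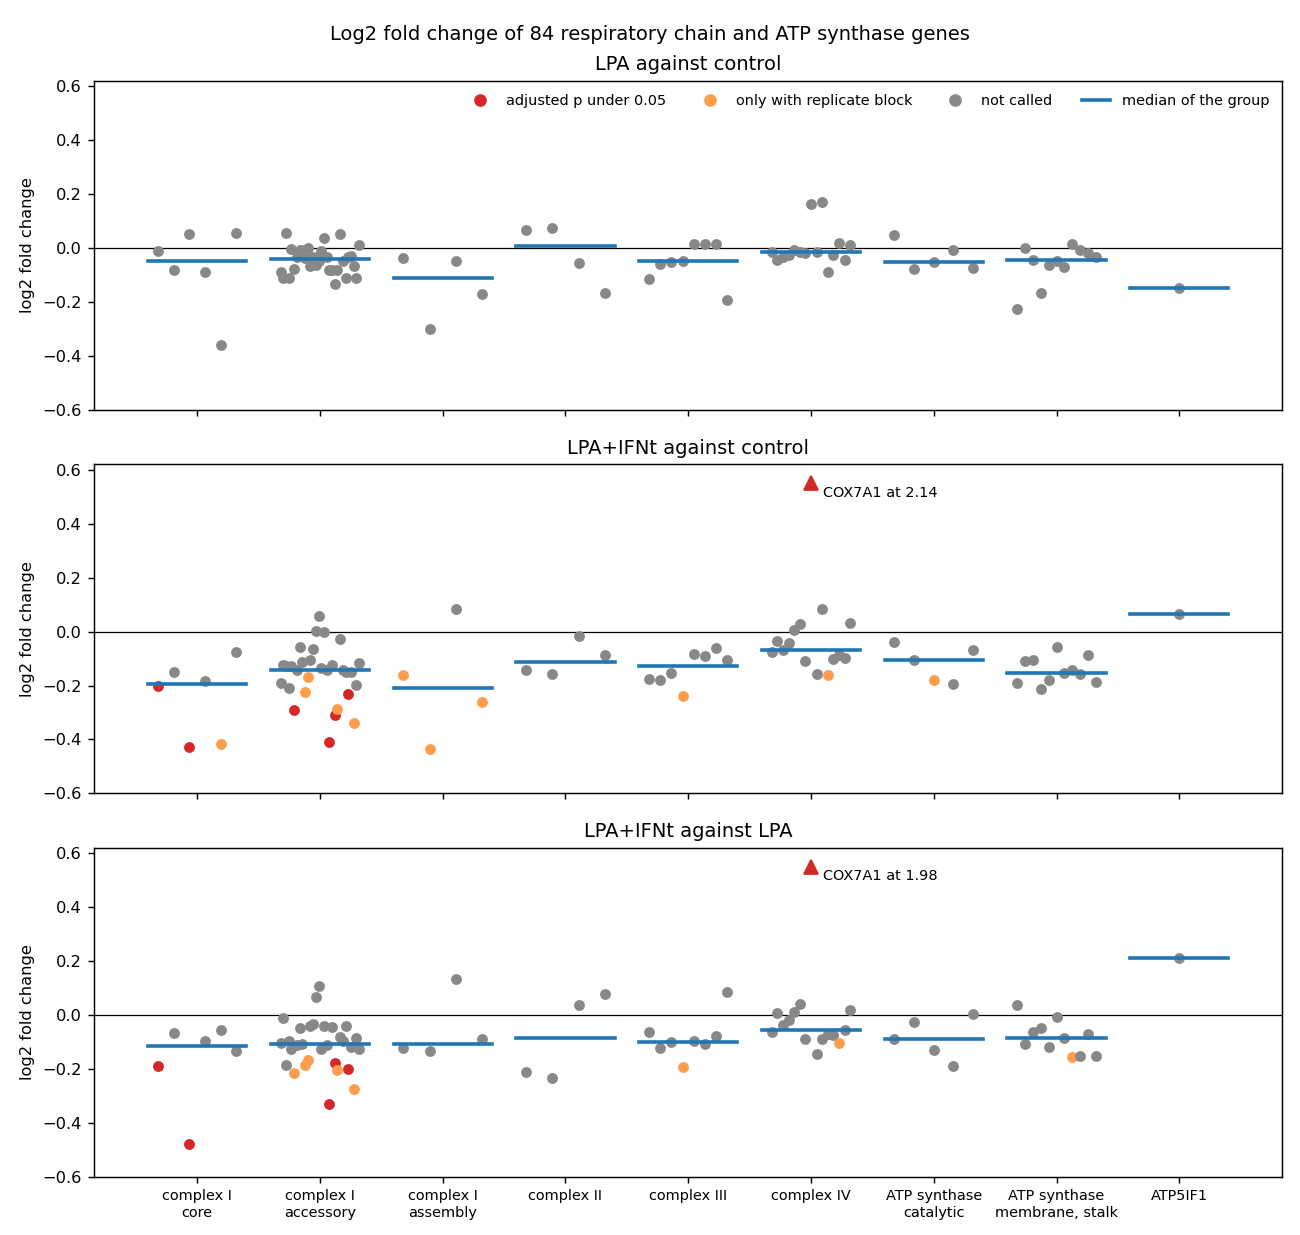
Log2 fold change of each of the 84 genes (vertical axis) by complex (horizontal axis) in the 3 comparisons, 1 panel each. Each point is a gene, blue lines are group medians, red marks an adjusted p under 0.05, orange marks a call made only with the replicate block, and COX7A1 is drawn as a triangle because its values of 2.14 and 1.98 lie beyond the axis. In both lower panels every group with several genes has its median below 0, and the orange points outside complex I in LPA+IFNt against control are UQCRC1, COX7C and ATP5F1C.

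Several other measures moved with the groups. The 3′ minus 5′ signal of the eIF-4E control transcript, a measure of RNA integrity and amplification length, was 3.44 to 4.02 in control, 3.25 to 3.29 in LPA and 2.90 to 3.13 in LPA+IFNt (log2 units). For the GAPDH and cyclophilin control transcripts the groups overlapped. The mean level of the 14 stromal markers was 11.35 to 11.44 in control, 11.45 to 11.66 in LPA and 11.26 to 11.28 in LPA+IFNt, and 3 of them (COL1A1, COL3A1 and FBN1) fell against control, COL1A1 losing its call for 7 of the 9 arrays left out in turn. With spike-in centring COL3A1 alone kept its call. Of all probe sets 2.86% were lower against control, and of those above background 4.56%. The mean of the 14 epithelial markers overlapped, at 10.12 to 10.25 in control and 10.12 to 10.25 in LPA+IFNt, with 1 marker, CDH1, higher (adjusted p = 0.0112, and 0.163 with spike-in centring). The block added MUC1 as higher (adjusted p = 0.264 without it and 0.0288 with it). The part of these measures in the lower level of the respiratory chain genes was not tested. In such mixed cultures, fewer cells of a type and less RNA per cell cannot be told apart.

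Complex I takes electrons from NADH and passes them along iron–sulphur clusters to ubiquinone. Of its core subunits, 6 were measured, and all 6 had a log2 fold change below 0 in LPA+IFNt against control, with a median of -0.19. NDUFS7 and NDUFS1 fell. NDUFS7, which carries the last iron–sulphur cluster before ubiquinone, read 9.31, 9.22 and 9.34 in control, 9.37, 9.24 and 9.42 in LPA and 9.02, 8.69 and 8.89 in LPA+IFNt. The LPA+IFNt arrays lay below all others, while control and LPA overlapped. Its log2 fold change against control was -0.43 (SE 0.09, adjusted p = 0.0314, limma), and the adjusted p was between 0.0218 and 0.109 when 1 array was left out. The call was lost without any 1 of control 1, control 2, control 3, LPA 1, LPA+IFNt 2 or LPA+IFNt 3.

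NDUFS1, the large iron–sulphur subunit of the NADH-oxidising part, read 11.11, 11.13 and 11.07 in control, 11.12, 11.05 and 11.11 in LPA and 10.95, 10.88 and 10.88 in LPA+IFNt. Again only the LPA+IFNt arrays stood apart. Its log2 fold change was -0.20 (SE 0.03, adjusted p = 0.0132, limma), and the call was lost without control 1, control 2 or LPA+IFNt 3 (adjusted p up to 0.0642). This gene has 3 probe sets, and they disagree: the brightest gave these values, the next gave -0.03 (adjusted p = 0.85), and the last averaged 2.20, under background.

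NDUFV1, which binds NADH and the flavin cofactor, had the next largest difference of the core subunits. It read 9.45, 9.03 and 9.14 in control, 9.05, 8.83 and 8.66 in LPA and 8.83, 8.73 and 8.83 in LPA+IFNt. Control lay above LPA+IFNt on every array, but the spread within control and within LPA was wide, with an SD of 0.22 and 0.20. Its log2 fold change was -0.42 (adjusted p = 0.135, and 0.048 with the replicate block, limma). Of the remaining core subunits, NDUFS8, which holds a pair of clusters on the way to ubiquinone, had -0.19 (adjusted p = 0.107, and 0.0473 without LPA+IFNt 1), and NDUFS3 and NDUFV2 had -0.15 and -0.08.

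The 30 accessory subunits surround the core and are needed for its assembly and stability. Their median log2 fold change was -0.14, with 28 of 30 below 0, and 4 fell. NDUFB4, a membrane-arm subunit, read 11.38, 11.20 and 11.29 in control, 11.24, 11.20 and 11.20 in LPA and 10.96, 10.81 and 10.87 in LPA+IFNt. Its log2 fold change was -0.41 (SE 0.05, 95% confidence interval -0.53 to -0.28, adjusted p = 0.0047, limma). The same-numbered pairs differed by -0.41, -0.39 and -0.42, the closest agreement among the 6 genes that fell, and the call held with each array left out (adjusted p 0.00741 to 0.0236).

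NDUFB6, also of the membrane arm, ran from 11.98 to 12.07 in control, with a mean of 12.02, and read 11.85, 11.89 and 11.92 in LPA and 11.71, 11.77 and 11.65 in LPA+IFNt. The 3 groups did not overlap and LPA lay between the other 2. LPA+IFNt differed from control by a log2 fold change of -0.31 (SE 0.04, adjusted p = 0.00486, limma), and the call held with each array left out. It was lost when arrays were centred on the spike-in controls (adjusted p = 0.226).

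NDUFA2, a thioredoxin-like subunit of the matrix arm, read 12.17, 11.97 and 12.05 in control, 12.05, 11.95 and 11.95 in LPA and 11.79, 11.77 and 11.76 in LPA+IFNt. The LPA+IFNt arrays agreed closely (SD 0.01) and lay below the rest. Its log2 fold change was -0.29 (SE 0.05, adjusted p = 0.0207, limma), and the call was lost without control 3 or any 1 of the LPA+IFNt arrays (adjusted p up to 0.074).

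NDUFC2, at the base of the membrane arm, read 13.23, 13.13 and 13.19 in control, 13.20, 13.14 and 13.11 in LPA and 12.95, 12.90 and 13.00 in LPA+IFNt. The LPA+IFNt arrays were the lowest of the 9. Its log2 fold change was -0.23 (SE 0.04, adjusted p = 0.0182, limma), and the call was lost without control 1, control 3, LPA+IFNt 1 or LPA+IFNt 2 (adjusted p up to 0.0674). Of the 6 complex I genes called against control, NDUFB4 and NDUFB6 thus kept the call with any 1 array left out, and the other 4 did not.

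**Figure D2:**
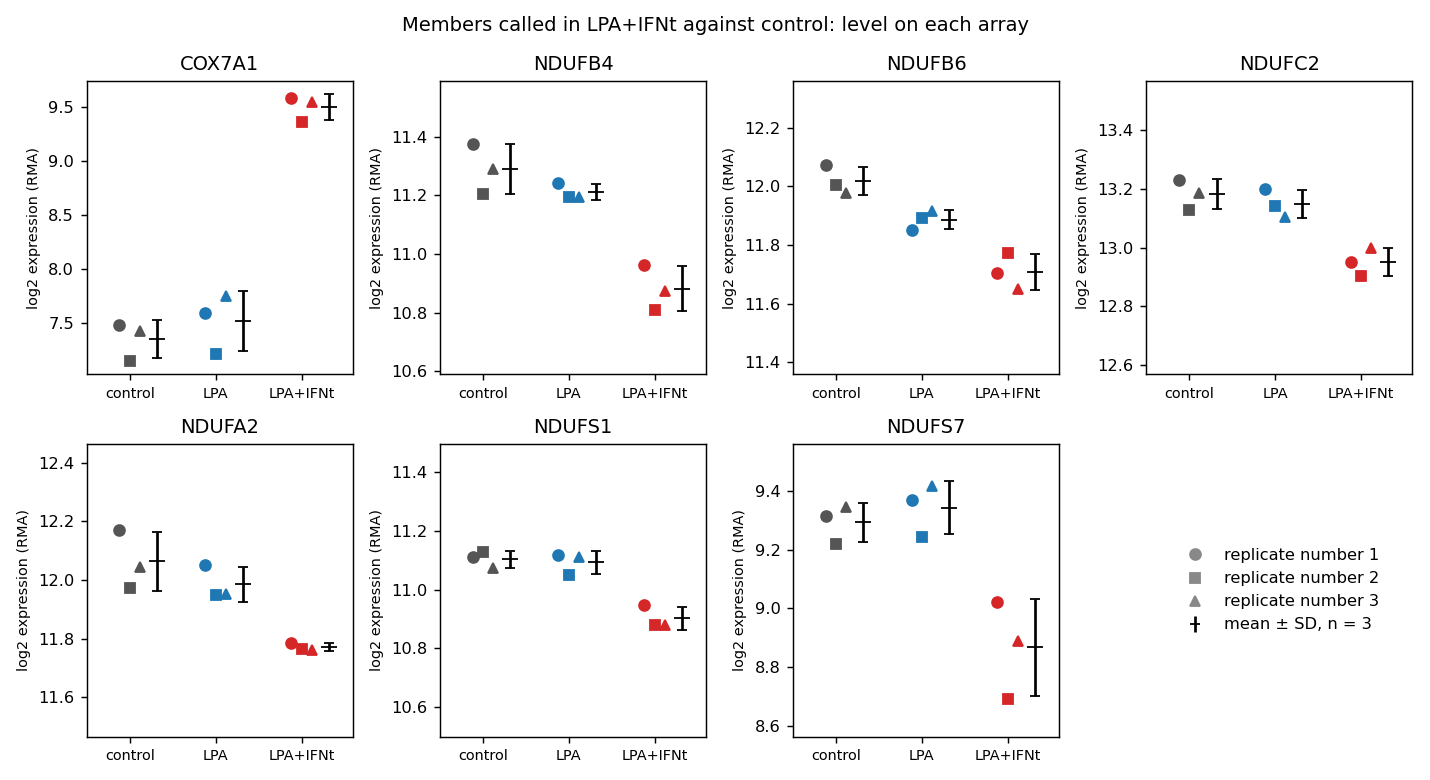
Log2 expression (vertical axis, RMA) of the 7 genes called in LPA+IFNt against control, 1 panel per gene, on each of the 9 arrays by group (horizontal axis). Shapes mark the replicate number and bars the mean ± SD of 3 arrays; the COX7A1 panel spans a wider range than the others. COX7A1 goes from 7.35 in control to 9.49 in LPA+IFNt, while the LPA+IFNt arrays of the 6 complex I genes all lie below the control and LPA arrays.

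Among the other accessory subunits, NDUFS5 had the largest difference. It read 11.78, 11.57 and 11.67 in control and 11.37, 11.32 and 11.31 in LPA+IFNt, without overlap, a log2 fold change of -0.34 (adjusted p = 0.0588, and 0.0255 with the replicate block, limma). NDUFB7, NDUFA7 and NDUFA8 were likewise called only with the block, at -0.29, -0.22 and -0.17. NDUFA13, which is also known as a gene of retinoid and interferon induced cell death, had -0.13 (adjusted p = 0.441), with overlapping groups. NDUFB10 and NDUFB1 were the accessory subunits with a value above 0, at 0.06 and 0.00, and neither passed the test.

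Complex I assembly factors help build the enzyme and are not part of it. NDUFAF5, which modifies NDUFS7 during assembly, read 9.68, 9.56 and 9.49 in control, 9.38, 9.46 and 9.00 in LPA and 9.15, 9.36 and 8.92 in LPA+IFNt. Both treated groups lay below control without overlap and overlapped each other. Against control, LPA+IFNt differed by -0.43 (adjusted p = 0.171, and 0.0381 with the replicate block, limma), and LPA by -0.30 (adjusted p = 0.674). Its other probe set, with a lower mean of 7.79, passed in LPA+IFNt against control (-0.59, adjusted p = 0.0463), so the call differs between the probe sets of this gene. NDUFAF8, the partner of NDUFAF5, had -0.26 (adjusted p = 0.183, and 0.0182 with the block), and NDUFAF3 had -0.16 (0.436 and 0.0335). NDUFAF6 had 0.09 (adjusted p = 0.688).

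**Figure D3:**
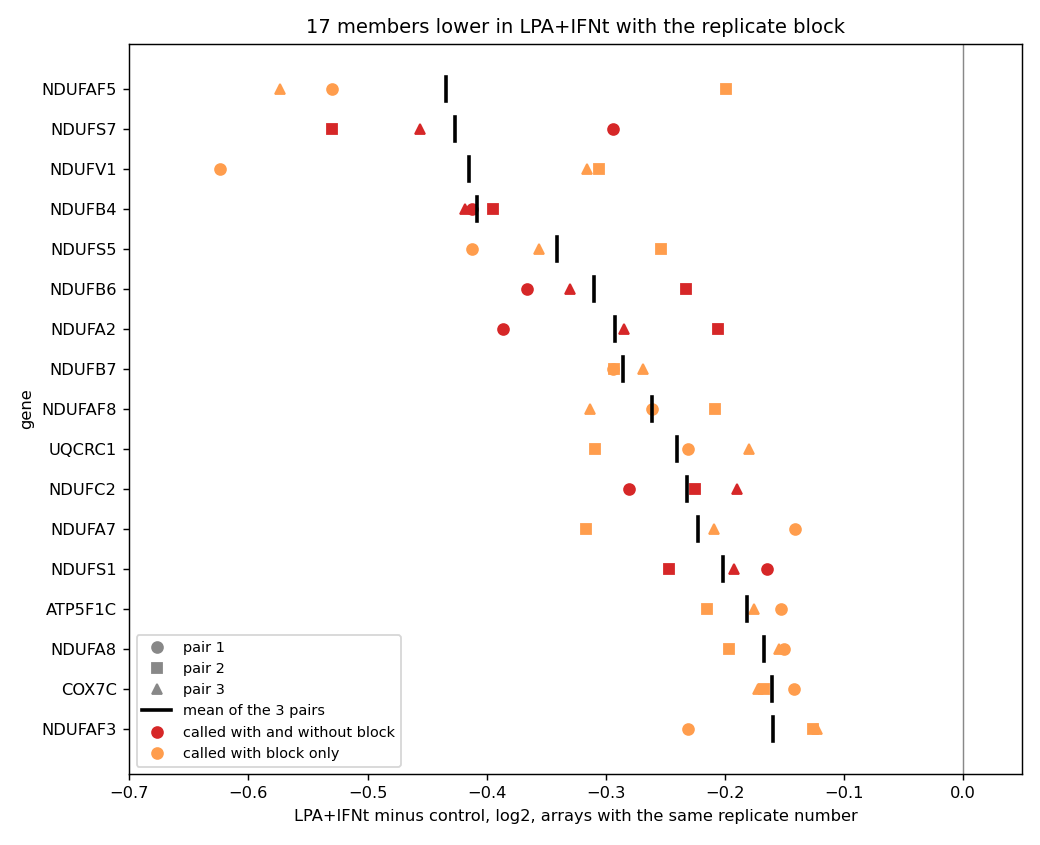
LPA+IFNt minus control (horizontal axis, log2) for arrays with the same replicate number, for the 17 genes (vertical axis) lower with the replicate block. Shapes mark the 3 pairs, black bars their mean, red the 6 genes called with and without the block and orange those called with it only. All differences of the 17 genes lie below 0; the NDUFB4 pairs lie close together (-0.39 to -0.42), while those of NDUFAF5 (-0.20 to -0.57) and NDUFV1 (-0.31 to -0.62) are spread widely.

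Complex II oxidises succinate and belongs to the citric acid cycle as well. None of its 4 subunits passed the test in any comparison with all arrays. In LPA+IFNt against control, the flavoprotein SDHA differed by -0.14 (adjusted p = 0.442) and the iron–sulphur subunit SDHB by -0.16 (0.413). The membrane anchors SDHC and SDHD had -0.02 and -0.09. Against LPA, the catalytic pair and the anchors had opposite signs, with SDHA at -0.21, SDHB at -0.23, SDHC at 0.04 and SDHD at 0.08. SDHA read 11.07, 10.80 and 10.83 in LPA and 10.72, 10.59 and 10.75 in LPA+IFNt, so those groups did not overlap, but the adjusted p was 0.23. SDHB passed against LPA only without LPA 2, at 0.0493.

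Complex III passes electrons from ubiquinol to cytochrome c. All 8 of its measured subunits had a log2 fold change below 0 against control, between -0.24 and -0.06, with a median of -0.13 and no call without the block. UQCRC1, a core subunit, was called with the block. It read 10.94, 10.73 and 10.69 in control, 10.91, 10.68 and 10.63 in LPA and 10.71, 10.42 and 10.51 in LPA+IFNt, and replicate 1 was the highest array in each group. The groups therefore overlapped, while the pairs differed by -0.23, -0.31 and -0.18 (adjusted p = 0.315, and 0.0154 with the block, limma). The other core subunit, UQCRC2, had -0.08 and the Rieske iron–sulphur protein UQCRFS1 had -0.09, with adjusted p of 0.431 and 0.294. UQCRB and UQCR10, small subunits of the complex, had -0.15 and -0.17, with adjusted p of 0.161 and 0.203; UQCRB passed without LPA+IFNt 2, at 0.0262.

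Complex IV reduces oxygen to water, and the 15 genes measured for it include NDUFA4, which is a complex IV subunit despite its name, and its paralogue NDUFA4L2. COX7A1, which has a single probe set, read 7.48, 7.15 and 7.43 in control, 7.59, 7.21 and 7.75 in LPA and 9.58, 9.36 and 9.54 in LPA+IFNt. Control and LPA overlapped and all LPA+IFNt arrays lay far above both. The group means were 7.35 ± 0.18, 7.52 ± 0.28 and 9.49 ± 0.12 (SD, n = 3). The log2 difference from control was 2.14 (SE 0.15, 95% confidence interval 1.80 to 2.49, adjusted p = 0.000151, limma). Differences between same-numbered arrays were 2.10, 2.21 and 2.12. Of the 9155 named genes, 54 had a larger rise. With each array left out in turn, the log2 fold change stayed between 2.04 and 2.21 and the adjusted p between 6.77e-05 and 0.00156.

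Neither of the other measured forms of this subunit passed the test. COX7A2, the ubiquitous form, read 13.54, 13.36 and 13.48 in control and 13.37, 13.20 and 13.33 in LPA+IFNt, a difference of -0.16 (adjusted p = 0.211). COX7A2L, a related protein that joins complexes III and IV into supercomplexes, had 0.08 (adjusted p = 0.558). Muscle forms of other subunits did not pass the test: COX6A2 stayed under background on all 9 arrays, at 1.90 in control and 1.90 in LPA+IFNt. COX8B had -0.09 (adjusted p = 0.524) on the probe set that stands for it, which averaged 11.12, while its other probe set averaged 2.02, under background, so the level of this gene is uncertain.

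Because COX7A1 is typical of muscle, a list of striated and smooth muscle markers was set beside it. Of 15 measured, 8 lay above background on all arrays, and MYH11, RGS5, TNNT1, TNNT3, MB, ACTN2 and ACTN3 averaged under it in control and in LPA+IFNt. The mean of the list was 4.60 to 4.73 in control, 4.74 to 4.82 in LPA and 4.58 to 4.64 in LPA+IFNt. None of the 15 was called against control, though with the replicate block CKM, the muscle creatine kinase, was called lower (-0.44, adjusted p = 0.0958, and 0.0242 with the block). Against LPA, CKM fell (-0.75, adjusted p = 0.0109), and the block added DES, CNN1 and MYH7 as lower (-1.57, -0.37 and -0.28, with adjusted p of 0.0204, 0.0109 and 0.0344).

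None of the remaining complex IV genes was called without the block. The common subunits COX4I1, COX5A, COX5B and COX6A1 had log2 fold changes of -0.08, -0.03, -0.07 and -0.04 against control, with adjusted p of 0.437 to 0.697. COX7C, a small subunit, had -0.16 (adjusted p = 0.122, and 0.0455 with the replicate block, limma). NDUFA4 had -0.10 (adjusted p = 0.593). The complex IV median was -0.07, the nearest to 0 of all the groups with more than 1 gene. This group alone holds genes under background, where a fall could hardly show. These are COX6A2, COX6B2 and NDUFA4L2, at 0.00, 0.03 and 0.03.

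ATP synthase consists of a catalytic head, a stalk and a membrane ring that the proton flow turns. All 16 genes of the enzyme itself had a log2 fold change below 0 against control, with a median of -0.10 for the 5 catalytic genes and -0.15 for the 11 of membrane part and stalk, and none was called without the block. The head subunits ATP5F1A and ATP5F1B had -0.04 and -0.10. ATP5F1C, the central rotor, read 13.34, 13.27 and 13.34 in control and 13.19, 13.06 and 13.17 in LPA+IFNt, without overlap, a log2 fold change of -0.18 (adjusted p = 0.129, and 0.0333 with the block, limma). ATP5F1D, also of the rotor, had -0.20 (adjusted p = 0.277). ATP5PO, which ties the outer stalk to the head, had -0.19 (adjusted p = 0.0811) and passed without LPA+IFNt 1, at 0.04. ATP5MC1, 1 of 3 genes for the ring subunit, had -0.19 (adjusted p = 0.297).

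ATP5IF1, the inhibitor that stops the enzyme from running backwards, differed in sign from the enzyme's own genes in LPA+IFNt against control, but was not called. It read 13.68, 13.58 and 13.58 in control, 13.51, 13.54 and 13.35 in LPA and 13.70, 13.63 and 13.70 in LPA+IFNt. The LPA arrays were the lowest of the 9, and control and LPA+IFNt overlapped. It differed by 0.06 from control (adjusted p = 0.567) and by 0.21 from LPA (adjusted p = 0.0714), which passed without LPA 2, at 0.0485.

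**Figure D4:**
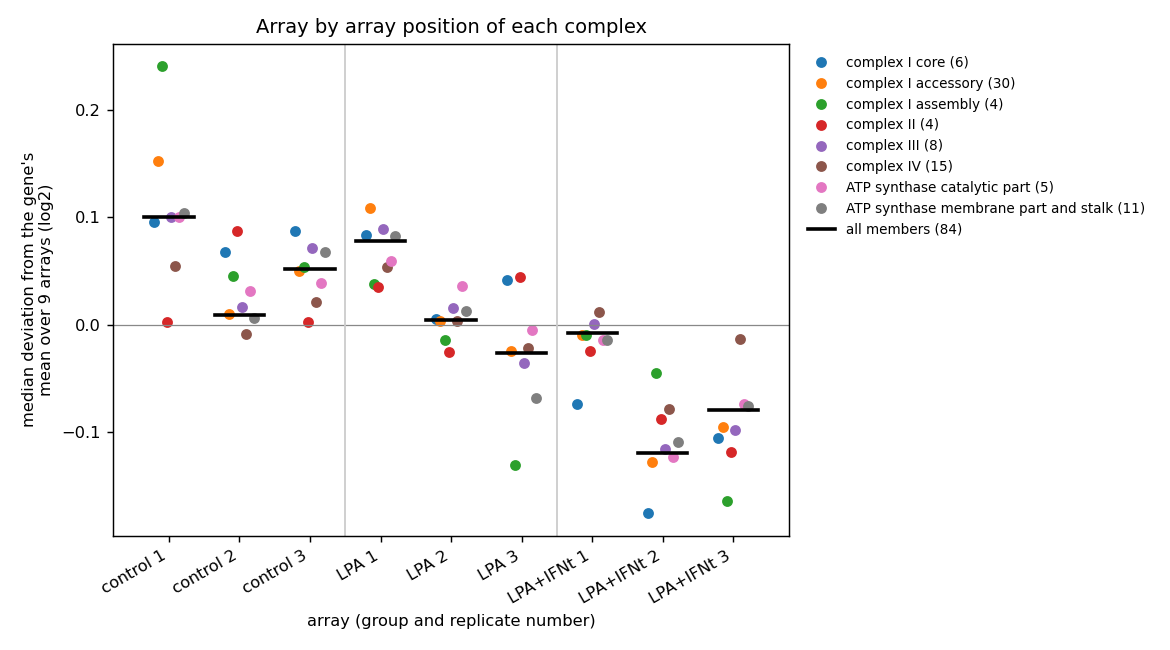
Median deviation of the genes of each complex from each gene's mean over the 9 arrays (vertical axis, log2) on each array (horizontal axis). Coloured points are the complexes with the number of genes, and black bars the median of all 84 genes. The black bars lie at 0.10, 0.01 and 0.05 in control, 0.08, 0.00 and -0.03 in LPA and -0.01, -0.12 and -0.08 in LPA+IFNt; replicate 1 is the highest array of each group.

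The array medians ranged from 0.01 to 0.10 within control, and the LPA+IFNt values all lay below them. In LPA, array 1 lay within the control range and arrays 2 and 3 below it. The 81 genes above background had a median SD of 0.10 over the 9 arrays and 0.08 within groups. For the 15053 probe sets above background it was 0.15 and 0.12. Only 3160 probe sets had a mean above 10, and the spread of probe sets as bright as these genes was not compared. The correlation of each of those 81 genes with the mean of the others over the 9 arrays had a median of 0.76 and ran from -0.73 to 0.98. The pools share animals and the 9 arrays were normalized together, so this is a description only.

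In LPA against control, 0 of the 84 genes passed an adjusted p under 0.05, with or without the block, beside 0.0708% of all probe sets (0.0208% lower) and 0.0458% with the block (0.0125% lower). At an unadjusted p under 0.05 there were 5, of which COX7A2L was higher (0.17) and NDUFV1 (-0.36), NDUFB6 (-0.13), ATP5MC1 (-0.23) and ATP5IF1 (-0.15) were lower. Those are 1.19% and 4.76% of the genes, beside 4.43% and 3.86% of all probe sets and 6.89% and 6.04% of those above background. COX7A1 differed by 0.17 (95% confidence interval -0.18 to 0.51, adjusted p = 0.946). A change in COX7A1 as large as the upper bound is thus not excluded by these arrays.

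With LPA, 66 of 84 genes had a log2 fold change below 0 (78.6%), with a median of -0.04 beside 0.00 for all probe sets. Of all probe sets 47.6% lay below 0, and of those above background 51.4%. Groups did not overlap for 7 genes that were lower, or 8.33% beside 4.91% of all probe sets and 7.11% of those above background. The same held for 1 that was higher, COX7A2L, or 1.19% beside 5.13% and 7.51%. UQCRQ, a small complex III subunit, read 10.33, 10.31 and 10.30 in control and 10.08, 10.35 and 9.95 in LPA, where the second array lay above control. It differed by -0.19 (adjusted p = 0.645, limma), and it passed only without LPA 2, at -0.30 and 0.049. No other gene passed with an array left out.

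Against LPA, LPA+IFNt again had COX7A1 as the 1 gene higher and complex I genes lower. This comparison shares the LPA+IFNt arrays with that against control, so the values are given side by side and do not count as a second sight of the same change. COX7A1 rose by 1.98 (SE 0.15, 95% confidence interval 1.63 to 2.33, adjusted p = 0.000234, limma). NDUFS7 fell by 0.48 (adjusted p = 0.0178), NDUFB4 by 0.33 (0.0116), NDUFC2 by 0.20 (0.0317), NDUFS1 by 0.19 (0.0154) and NDUFB6 by 0.18 (0.0472). In all, 6 of 84 genes (7.14%) passed, beside 6.54% of all probe sets and 10.3% of those above background. The 5 lower genes are 5.95%, beside 3.98% and 6.34%, and the 1 higher gene is 1.19%, beside 2.56% and 4%. The shares thus lie near or below those of probe sets above background.

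With the replicate block 13 genes passed (15.5%, beside 9.66% of all probe sets and 15.3% of those above background). Of these, 1 was higher and 12 were lower (14.3%, beside 6.28% and 9.98%). The share called is thus near that of probe sets above background. NDUFB6 was lost (adjusted p = 0.0633), and NDUFA2, NDUFA7, NDUFA8, NDUFB7, NDUFS5, UQCRC1, COX8B and ATP5PB were added. Without LPA 1, COX7A1 alone was called. Without LPA 3, 2 genes were called, and without LPA+IFNt 3 there were 3. All probe sets then gave 460, 503 and 474 higher and 494, 626 and 605 lower. NDUFB4 lost its call without LPA 1 (adjusted p = 0.0509), NDUFS7 without LPA 1, LPA 3 or LPA+IFNt 3 (up to 0.0719), and NDUFS1 without LPA 1, LPA 3, LPA+IFNt 2 or LPA+IFNt 3 (up to 0.062). NDUFC2 lost it with any 1 of 6 arrays left out (up to 0.103), and NDUFB6 lost it with 8 of the 9 arrays left out in turn.

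The median log2 fold change against LPA was -0.09. It was 0.02 for all probe sets, -0.02 for those above background and -0.05 for the 3160 with a mean above 10. Values lay below 0 for 70 of 84 genes (83.3%). The shares were 38.5% of all probe sets, 55% of those above background and 62.3% of those with a mean above 10. Groups did not overlap for 21 lower genes, or 25% beside 11.3% of all probe sets and 17.8% of those above background. Complex I core and accessory subunits had medians of -0.11 and -0.11, complex III -0.10, complex IV -0.06 and both parts of ATP synthase -0.09 and -0.08. A single test for any difference among the 3 groups called 7 genes, or 8.33%. Of all probe sets it called 5.99%, and of those above background 9.49%. With the block it called 13 genes (15.5%), beside 9.48% and 15%.

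Markers of the cultured cells also moved in LPA+IFNt against LPA. Of 14 stromal markers, 5 fell (COL1A1, COL1A2, COL3A1, FBN1 and THY1), with a median of -0.23 over the list and 12 of 14 below 0. Of all probe sets 3.98% were lower, and of those above background 6.34%. COL1A2 lost its call for 5 of the 9 arrays left out in turn and with the block (adjusted p = 0.0609), and COL1A2 and FBN1 lost theirs with spike-in centring (0.294 and 0.0617). Of 14 epithelial markers, SPINT2 fell by 0.45 (adjusted p = 0.00457), and the block added MUC1 and KRT18 as higher (0.0157 and 0.0378). The leukocyte marker CD53 was higher (adjusted p = 0.0336), and CD14 was called lower with the block (0.0271). Their part in the values of the respiratory chain genes was not tested.

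Genes that act around the respiratory chain were taken from 7 lists. LPA against control called 0 genes in all 7, beside 0.0708% of all probe sets. In LPA+IFNt against control, 2.48% of all probe sets were higher and 2.86% lower, or 3.88% and 4.56% of those above background. Against LPA these shares were 2.56% and 3.98%, or 4% and 6.34%. The list counts below stand beside them. Of 26 measured assembly factors and cofactors, none was called in LPA+IFNt against control, though the block added SDHAF2 (0.28), COA4 (-0.25) and SDHAF3 (-0.29). Against LPA, SCO1, a copper carrier for complex IV, was higher by 0.35 (adjusted p = 0.0146), and COA5, a complex IV assembly factor, lower by 0.20 (0.0392, and 0.0619 with the block). Their median was -0.14 against control.

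Among 15 electron carriers and coenzyme Q synthesis genes, LPA+IFNt against control called 1 higher and 2 lower. PDSS2, which makes the side chain of coenzyme Q, rose by 0.58 on the log2 scale (adjusted p = 0.00819). COQ10A, a coenzyme Q binding protein, had -0.71 (0.00317), and ETFA, which brings electrons from fat oxidation, had -0.31 (0.0154). Against LPA the same list gave PDSS2 at 0.78, COQ10A at -0.45 and COQ3, a methyltransferase of coenzyme Q synthesis, at -0.25, with adjusted p of 0.00189, 0.0234 and 0.0375. Of 12 carriers, SLC25A4, which exchanges ADP for ATP across the inner membrane and is also the form typical of heart and muscle, fell by 0.33 against control and by 0.33 against LPA (adjusted p = 0.0112 and 0.01).

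Of 22 citric acid cycle and pyruvate genes, 2 fell against control. PDHB, a subunit of pyruvate dehydrogenase, fell by 0.41 (adjusted p = 0.0353), and IDH2, mitochondrial isocitrate dehydrogenase, by 0.30 (0.0292). DLAT, another pyruvate dehydrogenase component, fell by 0.25 against LPA (adjusted p = 0.00748). Among 20 glycolytic genes, ENO2, the neuronal enolase, rose by 0.83 against control and by 0.74 against LPA (adjusted p = 0.000197 and 0.000374) from a low level of 3.38. HK1, a hexokinase, fell by 0.24 against control (0.0279), and SLC16A3, a lactate exporter, by 0.46 against LPA (0.00394).

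Nuclear regulators of mitochondrial genes changed in 1 case of 18. MTERF3, a repressor of mitochondrial transcription, fell by 0.58 against control (adjusted p = 0.0334), and none passed against LPA. No gene passed in either comparison among 16 genes of the mitochondrial stress response and antioxidant defence. Their median against control was -0.10, with 15 of 16 below 0. Medians of the other lists against control were -0.20 for electron carriers and coenzyme Q, -0.13 for the citric acid cycle, -0.09 for regulators, -0.08 for glycolysis and -0.04 for carriers. With the replicate block, electron carriers and coenzyme Q had 4 lower genes against control and 4 against LPA, and carriers 2 and 3. The citric acid cycle had 6 and 5, glycolysis 5 and 4, regulators 2 and 1 and the stress response 0 and 1. With the block 5.44% and 6.28% of all probe sets were lower in these comparisons, and 8.67% and 9.98% of those above background. With 1 array left out, the calls of PDSS2, COQ10A, SLC25A4 and ENO2 against control and of PDSS2, SLC25A4, DLAT, ENO2 and SLC16A3 against LPA held each time. The other list genes named lost theirs for 2 to 8 of the 9 arrays: ETFA without control 1 or control 2 (adjusted p up to 0.0631), SCO1 without LPA+IFNt 1 or LPA+IFNt 3 (up to 0.0564), and COQ10A against LPA without LPA 1 or any 1 of the LPA+IFNt arrays (up to 0.0927). IDH2, PDHB, HK1, MTERF3, COA5 and COQ3 lost theirs for 5 or more arrays, with adjusted p up to 0.108, 0.13, 0.105, 0.121, 0.123 and 0.12. With arrays centred on the spike-in controls, ETFA, SLC25A4, IDH2, PDHB and HK1 lost their calls against control, with adjusted p of 0.126, 0.0899, 0.116, 0.107 and 0.276. COA5, COQ3, DLAT and SLC25A4 lost theirs against LPA, with 0.507, 0.174, 0.256 and 0.0523. The calls of PDSS2, COQ10A, ENO2 and MTERF3 against control and of SCO1, PDSS2, COQ10A, ENO2 and SLC16A3 against LPA held there.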

How the data were processed

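The authors deposited 1 table of log2 expression values, 1 column per array, and per the submitters' processing notes they used Partek and RMA (versions not given there). Base 2 was taken from RMA's usual output and the range of the values. RMA sets the arrays to 1 distribution, so a change in most transcripts together would not show. Of 24128 probe sets, 112 Affymetrix controls were left out. Gene names came from the array annotation, and RefSeq's ARS-UCD2.0 annotation lists all 84 genes under the same symbol. No build is named for the array and no sequence table was used, so no coordinates or sequences are given.

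Differences were tested with limma 3.58.1 (lmFit, eBayes, two-sided) in R 4.3.3 on all 9 arrays, with no covariate or filter, and adjusted by Benjamini-Hochberg over 24016 probe sets. The script was tested on simulated data. The number of arrays limits the precision.

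The labels number the replicates 1 to 3 in each group without saying what a number marks. Deviations from group means correlated at 0.19 to 0.491 in all 9 same-numbered pairs, and at -0.468 to 0.141 in the other 18, so the numbers were taken to pair the arrays; this comes from the data. The fit with the number as a block is given where it changes a call of the 84 genes or of a marker named, and as counts for the lists.

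Named genes are those past the threshold, the 2 with the smallest p of each group in each comparison, 24 genes always given (23 measured; COX4I2 has no probe set named for it alone), and up to 3 called genes of each list. Genes named for a call made only with the block or with an array left out fall outside this rule. So do NDUFV2, NDUFB10, NDUFB1, COX6A2, COX6B2 and COX8B. All of these were chosen after their values were seen. The genes, lists and rule were chosen with earlier results of these data known. Alternatives were other variance models, filters, scalings, probe set choices and leaving out each array.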

Additional observations from a re-analysis of the deposited data

How the results depend on the processing

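The median log2 fold changes of the 84 genes moved by less than the spread between arrays under every alternative tried, and with 1 array left out they ran from -0.16 to -0.11 (LPA+IFNt against control), -0.12 to -0.05 (against LPA) and -0.06 to -0.01 (LPA against control). COX7A1 kept its call under all 21 alternatives in both comparisons, NDUFB4 under all 21 against control and 19 against LPA, and NDUFB6 under 19 against control and 4 against LPA. With the replicate block the genes called were 18 against control, 13 against LPA and 13 for any difference; among the 84 genes it changed no call other than those given above. With 1 array left out they were 4 to 8 against control, 1 to 8 against LPA, 3 to 8 for any difference and 0 to 1 for LPA against control. Against LPA, 3 were called with no variance moderation, 3 with only the arrays of both groups and 3 with dim probe sets left out; without moderation 4 passed for any difference. With arrays centred on the spike-in controls, 2 were called against control, 2 against LPA and 3 for any difference; without the bioB spike-ins, an alternative chosen after seeing the data, these were 3, 3 and 3. The medians under spike-in centring were -0.09 against control (-0.13 otherwise), -0.07 against LPA (-0.09 otherwise) and -0.01 for LPA (-0.04 otherwise). That centring also moved the split over all probe sets, to 630 higher and 481 lower against control (595 and 687 otherwise). Against LPA the split was 615 and 690 (614 and 957 otherwise), and for LPA against control 23 and 26 (12 and 5 otherwise). NDUFS1 against LPA turned from -0.19 to 0.0388 with its most variable probe set; the cause was not tested. Of the single genes, 2055 values under alternatives stayed on the same side of the threshold. Among these, called values kept their sign and uncalled values moved by less than their SD within groups, whatever their sign. A further 32 stayed uncalled but moved by at least that SD. Of called values, 78 lost their call with the sign kept and 1 changed sign, and 15 uncalled values gained a call.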

Other observations

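The genes beside COX7A1 in the RefSeq order were looked up after its values were seen. Of the 5 genes on each side, 5 had a probe set: POLR2I, TBCB, CAPNS1, ZNF565 and ZNF567. None was called in LPA+IFNt against control, where their log2 fold changes were -0.18, -0.21, -0.02, 0.00 and -0.21 (adjusted p of 0.119 to 0.977, limma). TBCB, a tubulin-folding cofactor, fell by 0.28 against LPA (adjusted p = 0.0415).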
